A study of Mus musculus with 6 samples.

Results

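This account follows 46 genes that are induced by type I interferon, in naive CD8 T cells of mice with and without the inhibitory receptor LAIR-1. They were chosen by name, and 45 of the 46 had a row among the 14515 genes of the table. The exception was Rnf213, which was not analysed here. Of these, 44 passed the filter on low counts and were tested among 9565 genes. Ifi44, with between 2 and 16 counts a library, did not pass and is described by its counts alone. The study took spleens from 3 wild type mice (Lair1+/+) and 3 LAIR-1-deficient mice (Lair1-/-). From each spleen, 100000 CD8 T cells of naive surface type, lacking CD44, were sorted, and their total RNA gave 1 library. The labels name no infection or treatment, and they do not state the strain, the age or the design of the Lair1 allele. P-values set the difference between genotypes against the spread between the 3 mice of each genotype.

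Type I interferons signal through a receptor of IFNAR1 and IFNAR2 and the kinases JAK1 and TYK2. These phosphorylate STAT2, which with IRF9 takes part in the complex that binds the interferon-stimulated response element in the promoters of their targets. The targets include sensors of viral nucleic acid, proteins that block viral replication, the transcription factor IRF7 that drives further interferon synthesis, and the ubiquitin-like modifier ISG15. Resting lymphocytes keep low levels of these transcripts without infection through tonic interferon signalling.

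The libraries held between 5519748 and 9187017 counts, and the Lair1-/- ones were all shallower than the wild type ones. Lair1 had 58, 32 and 43 counts in wild type mice 1, 2 and 3, and 2, 1 and 1 in Lair1-/- mice 1, 2 and 3, which matched the labels. Values by mouse are given in this order throughout, wild type first. Cd8a, a chain of the coreceptor used for sorting, was at 925 ± 60.3 CPM in wild type against 939 ± 42.2 CPM in Lair1-/- cells (mean ± SD, n = 3, as for all means below). CPM is the read count relative to a library's size, scaled by TMM. Immediate early genes of cell activation stood apart in mouse 1 of each genotype. The summed level of the 20 genes in that list was 11274 CPM in wild type mouse 1 and 13381 CPM in Lair1-/- mouse 1, against 4572 to 5207 CPM in the other libraries. Cd44, against which the cells were sorted, was at 12.0, 13.1 and 12.5 CPM in wild type against 21.8, 14.8 and 11.2 CPM in Lair1-/- mice. The genotype comparison is therefore also given without mouse 1.

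All 46 genes are annotated as protein coding in GENCODE vM21 (GRCm38), on 16 chromosomes, and several families are clustered. The 5 IFIT genes lie within 99.3 kb of chromosome 19 (34550694 to 34650009), and the 4 PYHIN genes within 376.4 kb of chromosome 1 (173566283 to 173942672). Some neighbours are near copies. Of the 50-base stretches in Ifit3 transcripts, 51.2% also occurred in transcripts of another gene, most often Ifit3b, which the table calls I830012O16Rik, and 45.0% of those of I830012O16Rik were shared, most often with Ifit3. Pyhin1 (33.7%), Pydc3 (20.8%), Ly6a (19.0%), Pydc4 (15.6%), Herc6 (12.5%), Ifi203 (12.2%) and Rtp4 (11.6%) were the other members with more than 10% shared. For Herc6 and Rtp4 the shared stretches were with a gene annotated on the same strand over their own exons (Gm45193 and Gm45338), not with a copy elsewhere. Counts of these 9 genes can be split between annotated genes and are uncertain. The exons of 9 members overlapped a gene on the opposite strand, among them Irf7 with Phrf1 and Parp9 with Dtx3l, and without a stated strand setting such reads cannot be told apart.

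The RefSeq promoter table (GRCm38.p6, 250 bases before to 50 after each start) held 36 of the 46 members. The members without an entry were Dhx58, Ifi27l2a, Ly6a, Mx1, Oas2, Parp9, Parp14, Rtp4, Usp18 and Zbp1. The core letters of the response element, searched as GAAA, any 2 bases and GAAA on both strands with overlapping matches allowed, occurred for 17 of these 36 genes (47.2%), against 3.99% of the 27025 genes in the table. The gamma-activated site letters TTCNNNGAA occurred for 5 of the 36 (13.9%), against 9.55% of all genes. A match is a description of the letters and does not show that a factor bound there. The following 60-base windows upstream of the start are shown because their genes carry the results below, with the matched letters in capitals, read 5′ to 3′ on the gene's strand.
Isg15, chr4:156200856-156200915 (minus strand): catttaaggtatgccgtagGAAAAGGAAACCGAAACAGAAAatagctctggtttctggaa
Bst2, chr8:71537565-71537624 (minus strand): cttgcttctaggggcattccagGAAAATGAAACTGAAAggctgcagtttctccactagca
Stat2, chr10:128270251-128270310 (plus strand): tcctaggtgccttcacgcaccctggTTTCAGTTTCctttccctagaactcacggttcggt
Ddx60, chr8:61928026-61928085 (plus strand): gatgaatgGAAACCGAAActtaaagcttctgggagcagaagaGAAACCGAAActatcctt
Ifit1, chr19:34640769-34640828 (plus strand): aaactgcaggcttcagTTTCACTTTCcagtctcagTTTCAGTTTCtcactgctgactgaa
Ifit3, chr19:34583365-34583424 (plus strand): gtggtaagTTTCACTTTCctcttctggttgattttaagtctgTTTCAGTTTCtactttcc
I830012O16Rik, chr19:34607761-34607820 (plus strand): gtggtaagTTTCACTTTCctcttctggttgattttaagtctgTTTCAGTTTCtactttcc
Rsad2, chr12:26456538-26456597 (minus strand): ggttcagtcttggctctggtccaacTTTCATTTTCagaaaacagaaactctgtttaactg

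Isg15 held 3 overlapping matches in a row, Bst2 held 2 that overlap, and Ddx60, Ifit1, Ifit3 and I830012O16Rik each held 2 apart. The Ifit1, Ifit3, I830012O16Rik, Stat2 and Rsad2 matches are on the reverse strand and therefore read TTTC, 2 bases and TTTC. The Ifit3 and I830012O16Rik windows were the same in all 60 bases, and over the 268 promoter bases that could be lined up 75.0% were identical. Among the other members, the letters lay upstream of the start of Gm14446, Ifi203, Oas3, Pydc3, Pydc4 and Trim30a. Ddx58, Eif2ak2 and Ifih1 had them only after the start. Irf7, Irf9, Cmpk2, Oasl1, Oasl2 and Helz2 were in the table without a match in these 300 bases.

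No member passed the test of LAIR-1-deficient against wild type cells. In edgeR's quasi-likelihood test 0 of 44 members were called lower and 0 higher in Lair1-/- cells (adjusted p under 0.05), where over all genes 0.0105% were called lower and 0% higher. Most means nevertheless leaned one way. The fold change was negative for 35 of 44 members, against 49.8% of all genes tested, and their median log2 fold change was -0.20, against 0.00059 over all genes. An unadjusted p under 0.05 was reached in the lower direction by 3 members (Irf7, Ifih1 and Bst2), against 1.44% of all genes, and in the higher direction by 0, against 1.81%. DESeq2 and limma-voom also called 0 members, with 2 and 3 at an unadjusted p under 0.05, against 2.27% and 3.23% of all genes. Every adjusted p of the members was 0.9999. In a bulk sample, fewer cells with a transcript and less of it per cell cannot be told apart.

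The lean of the list depended on single libraries. Without wild type mouse 2 the median log2 fold change was -0.03 and 26 members were negative. An unadjusted p under 0.05 was then reached by 0 members, against 2.44% of all genes. Without Lair1-/- mouse 1 the median was -0.11 with 32 negative. Without mouse 1 of both genotypes it was -0.21 with 37 negative, and without mouse 2 of both it was -0.14 with 32 negative.

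**Figure D1:**
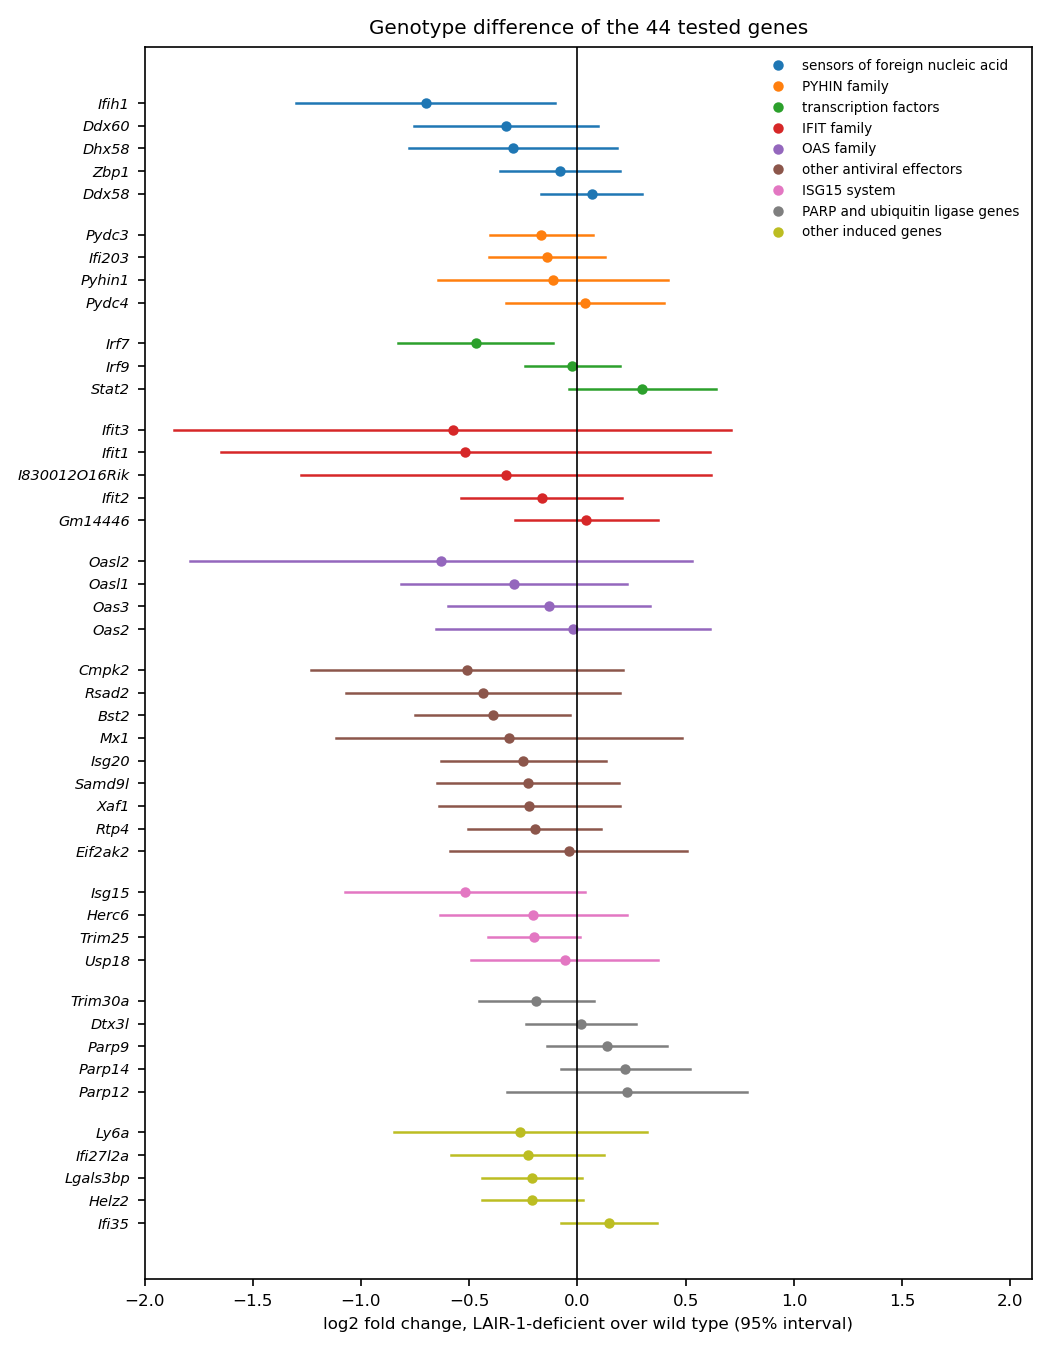
Log2 fold change of Lair1-/- over wild type for the 44 tested genes, one row each, with points for edgeR's estimate, bars for its 95% interval and colours for the role of the gene. Most points lie left of 0, and only the intervals of Ifih1, Irf7 and Bst2 leave out 0, before any adjustment for the number of genes.

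Among the transcription factors, Irf7 and Stat2 pointed in opposite directions. Irf7, the factor that amplifies interferon synthesis, was at 43.4, 65.2 and 42.6 CPM in wild type mice and at 36.8, 41.8 and 31.0 CPM in Lair1-/- mice. All 3 Lair1-/- values lay below all 3 wild type values, but by less than 1 CPM where the groups came closest, and wild type mouse 2 stood above the rest. Its means were 50.4 ± 12.8 and 36.5 ± 5.39 CPM, a log2 fold change of -0.47 (SE 0.17, 95% interval -0.83 to -0.11, unadjusted p of 0.0136 in edgeR's test). Without wild type mouse 2 the log2 fold change was -0.24. Stat2, the STAT protein particular to this pathway, was at 14.9, 16.5 and 20.0 CPM in wild type against 20.6, 23.5 and 19.4 CPM in Lair1-/- mice, with the highest wild type value above the lowest Lair1-/- one. Its log2 fold change of 0.30 (SE 0.16, 95% interval -0.04 to 0.64) was the largest positive one among the members. Irf9, the DNA-binding partner of STAT2, was the steadiest of the 3 between mice, at 66.8, 72.6 and 69.6 CPM in wild type against 67.9, 69.9 and 67.8 CPM in Lair1-/- mice.

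Of the 5 sensors of foreign nucleic acid, 4 had a negative fold change. Ifih1, which encodes the sensor MDA5 of long double-stranded RNA, was at 7.19, 9.63 and 7.18 CPM in wild type against 2.88, 6.40 and 5.61 CPM in Lair1-/- mice. The groups did not overlap, and Lair1-/- mouse 1 was far below the other mice of its genotype. The log2 fold change was -0.70 (SE 0.28, 95% interval -1.30 to -0.10, unadjusted p of 0.0239 in edgeR's test), the lowest among the members, and it was -0.43 without Lair1-/- mouse 1. These values rest on few counts, between 20 and 41 a library in Lair1-/- and between 57 and 88 in wild type mice. Ddx58, which encodes the related sensor RIG-I, showed no such lean, with 86.1, 99.6 and 94.8 CPM in wild type against 94.7, 111 and 88.2 CPM in Lair1-/- mice. Dhx58, the third of these helicases and known as LGP2, was at 9.46, 16.3 and 13.8 CPM and 9.51, 14.1 and 9.02 CPM, so that mouse 2 was highest in each genotype. Ddx60, a helicase related to them, was also highest in mouse 2 of each genotype, at 12.2, 17.1 and 11.8 CPM in wild type against 9.80, 13.0 and 10.1 CPM in Lair1-/- mice, with a log2 fold change of -0.33 (SE 0.20). Zbp1, a sensor of Z-form nucleic acid, was at 86.6, 117 and 77.5 CPM in wild type and within a narrow range of 87.1, 90.7 and 88.5 CPM in Lair1-/- mice.

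The PYHIN genes, whose family includes sensors of DNA, gave no call between genotypes. Ifi203 was at 164 ± 26.8 CPM in wild type against 149 ± 20.6 CPM in Lair1-/- cells, Pydc3 at 116 ± 14.6 and 103 ± 9.50 CPM, and Pydc4 at 15.6 ± 1.94 and 16.1 ± 2.29 CPM. Pyhin1 varied more between mice than between genotypes, at 103, 159 and 167 CPM in wild type against 105, 129 and 162 CPM in Lair1-/- mice. For each of these genes the groups overlapped, with 3 negative fold changes and 1 positive.

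The IFIT genes, whose proteins bind foreign RNA and block its translation, held some of the widest spreads between mice. Ifit1 was at 42.5, 110.2 and 69.8 CPM in wild type mice and at 39.4, 64.4 and 52.4 CPM in Lair1-/- mice. Ifit3, a partner of Ifit1, was at 15.4, 46.3 and 23.4 CPM and 17.6, 25.1 and 15.2 CPM. Its near copy I830012O16Rik had 11, 49 and 27 counts in wild type mice and 12, 16 and 24 in Lair1-/- mice. For all 3 genes wild type mouse 2 was the highest of the 6 libraries, while wild type mouse 1 was the lowest of its genotype and lay within or below the range of the Lair1-/- mice. The means of Ifit1 were 74.2 ± 34.1 and 52.0 ± 12.5 CPM, so the difference between genotypes was smaller than the SD of the wild type mice. Ifit2 was at 15.2 ± 1.73 and 13.6 ± 1.69 CPM and Gm14446, an Ifit1-like gene, at 26.5 ± 5.51 and 27.3 ± 2.07 CPM. Over the 5 genes the median log2 fold change was -0.33, with 4 negative.

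All 4 OAS genes among the members had negative fold changes, with a median of -0.21, and none passed the test. Outside the members, Oas1b was at 5.35 ± 0.326 CPM in wild type against 5.71 ± 1.97 CPM in Lair1-/- cells. Oas1c, also outside, was at 10.1 ± 2.25 and 9.38 ± 1.77 CPM, and both were named after their values were seen. Oas2 and Oas3 make the 2-5A messenger that activates the nuclease RNase L, and Oasl1 and Oasl2 are related proteins. Oasl2 was at 14.4, 34.8 and 16.7 CPM in wild type against 12.0, 21.0 and 10.4 CPM in Lair1-/- mice, again with mouse 2 highest in each genotype. Oas3 followed the same order of mice, at 9.84, 18.2 and 12.3 CPM and 12.4, 14.4 and 10.4 CPM. Oasl1 did not, at 8.58, 7.99 and 8.64 CPM in wild type against 5.04, 9.61 and 6.15 CPM in Lair1-/- mice. Oas2 was at 5.48 ± 1.26 and 5.49 ± 1.87 CPM, about equal, so its fold change was negative in sign only.

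The 9 other antiviral effectors all pointed down, at a median log2 fold change of -0.25, and none passed the test. Bst2, which encodes tetherin, the protein that holds budding virus at the cell surface, was at 19.9, 21.9 and 16.5 CPM in wild type against 15.9, 15.8 and 12.9 CPM in Lair1-/- mice. Its groups did not overlap, the nearest values being 16.5 and 15.9 CPM, and the log2 fold change was -0.39 (SE 0.17, 95% interval -0.75 to -0.04, unadjusted p of 0.0331 in edgeR's test). Mx1, a GTPase that blocks virus replication, had 23, 92 and 54 counts in wild type mice and 37, 36 and 28 in Lair1-/- mice. Wild type mouse 1 was the lowest and wild type mouse 2 the highest of all 6 libraries for Mx1, at 2.90, 10.1 and 6.06 CPM in wild type against 5.33, 6.40 and 3.83 CPM in Lair1-/- mice. Rsad2, which encodes viperin, was at 5.66 ± 1.73 and 4.22 ± 0.693 CPM. Cmpk2, a nucleotide kinase and genomic neighbour of Rsad2, was at 15.3, 32.4 and 22.4 CPM in wild type against 13.7, 23.1 and 13.1 CPM in Lair1-/- mice. Cmpk2 was highest in mouse 2 of each genotype. Isg20, an exonuclease, had means of 21.7 ± 5.09 and 18.4 ± 3.12 CPM. Rtp4 was at 69.7, 109 and 83.9 CPM and 70.3, 85.2 and 74.5 CPM, and Samd9l at 67.0, 90.6 and 79.0 CPM and 49.0, 66.2 and 86.7 CPM. Eif2ak2, which encodes the kinase PKR that halts translation, was close to equal at 6.77 ± 0.997 and 6.67 ± 2.08 CPM. Xaf1, a promoter of apoptosis, was at 19.4, 33.6 and 37.6 CPM in wild type against 26.5, 25.8 and 25.6 CPM in Lair1-/- mice, so the 3 Lair1-/- mice lay within 1 CPM of each other and inside the wild type range.

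In the ISG15 system, all 4 genes had a negative fold change. Isg15 itself was at 5.30, 8.43 and 8.75 CPM in wild type against 4.32, 5.69 and 5.74 CPM in Lair1-/- mice, and mouse 1 was the lowest in each genotype. It had a log2 fold change of -0.52 (SE 0.26, 95% interval -1.07 to 0.04). Trim25, a ubiquitin ligase that acts on RIG-I, was at 102, 110.4 and 95.8 CPM and 91.2, 91.2 and 85.7 CPM. These groups did not overlap but lay close together, and the log2 fold change was -0.20 (SE 0.10). Usp18, the protease that removes ISG15 and dampens the receptor, was at 14.04 ± 3.77 and 13.6 ± 2.28 CPM. Herc6, a ligase for ISG15 in mice, was at 12.7 ± 2.92 and 11.1 ± 1.64 CPM.

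Of the 5 genes grouped as PARP and ubiquitin ligase genes, 4 had positive fold changes, with a median of 0.14, and none passed the test. The positive lean lay in the PARP genes and not in the ligases. Dtx3l was about equal, with means of 163 and 165 CPM, and Trim30a and Trim25 (described above) were negative. Parp14, a mono-ADP-ribosyltransferase, was at 20.6, 24.1 and 21.1 CPM in wild type against 24.5, 27.7 and 24.6 CPM in Lair1-/- mice. Its lowest Lair1-/- value lay just above the highest wild type value, with a log2 fold change of 0.22 (SE 0.14). Parp12 was at 6.12 ± 0.948 and 7.11 ± 2.23 CPM. Parp9 was at 34.9 ± 3.91 and 38.4 ± 3.53 CPM and Dtx3l, the ubiquitin ligase that pairs with Parp9, at 139.9, 175 and 175 CPM and 142, 192 and 162 CPM. Trim30a had the group's negative fold change, at 89.4 ± 9.76 and 78.5 ± 12.6 CPM.

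Of the 5 tested genes of other function, 4 were negative. Lgals3bp, a secreted glycoprotein, was at 220.1, 262 and 278 CPM in wild type against 209.6, 249.7 and 198 CPM in Lair1-/- mice, with a log2 fold change of -0.21 (SE 0.11). Helz2, a helicase, was at 88.9, 98.4 and 89.3 CPM and 72.1, 90.9 and 76.8 CPM, which gave a log2 fold change of -0.21 (SE 0.11). In both genes the Lair1-/- range reached into the wild type range. Ifi35, a partner of NMI, was the exception with higher levels in every Lair1-/- mouse, at 75.3, 78.7 and 80.4 CPM in wild type against 94.8, 84.0 and 80.7 CPM in Lair1-/- mice, values that came within 1 CPM of each other. Ly6a, which encodes Sca-1, was at 37.6, 71.6 and 51.8 CPM in wild type against 51.7, 49.3 and 33.6 CPM in Lair1-/- mice. Ifi27l2a was at 129 ± 23.3 and 110.0 ± 24.6 CPM, and the untested Ifi44 had 7, 16 and 8 counts in wild type mice and 2, 4 and 8 in Lair1-/- mice.

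Over all members, complete separation of the genotypes was uncommon. All Lair1-/- libraries lay below all wild type libraries for 4 of 44 members (Irf7, Ifih1, Bst2 and Trim25), against 4.09% of all genes tested. They lay above for 2 members (Parp14 and Ifi35), against 4.3% of all genes.

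**Figure D2:**
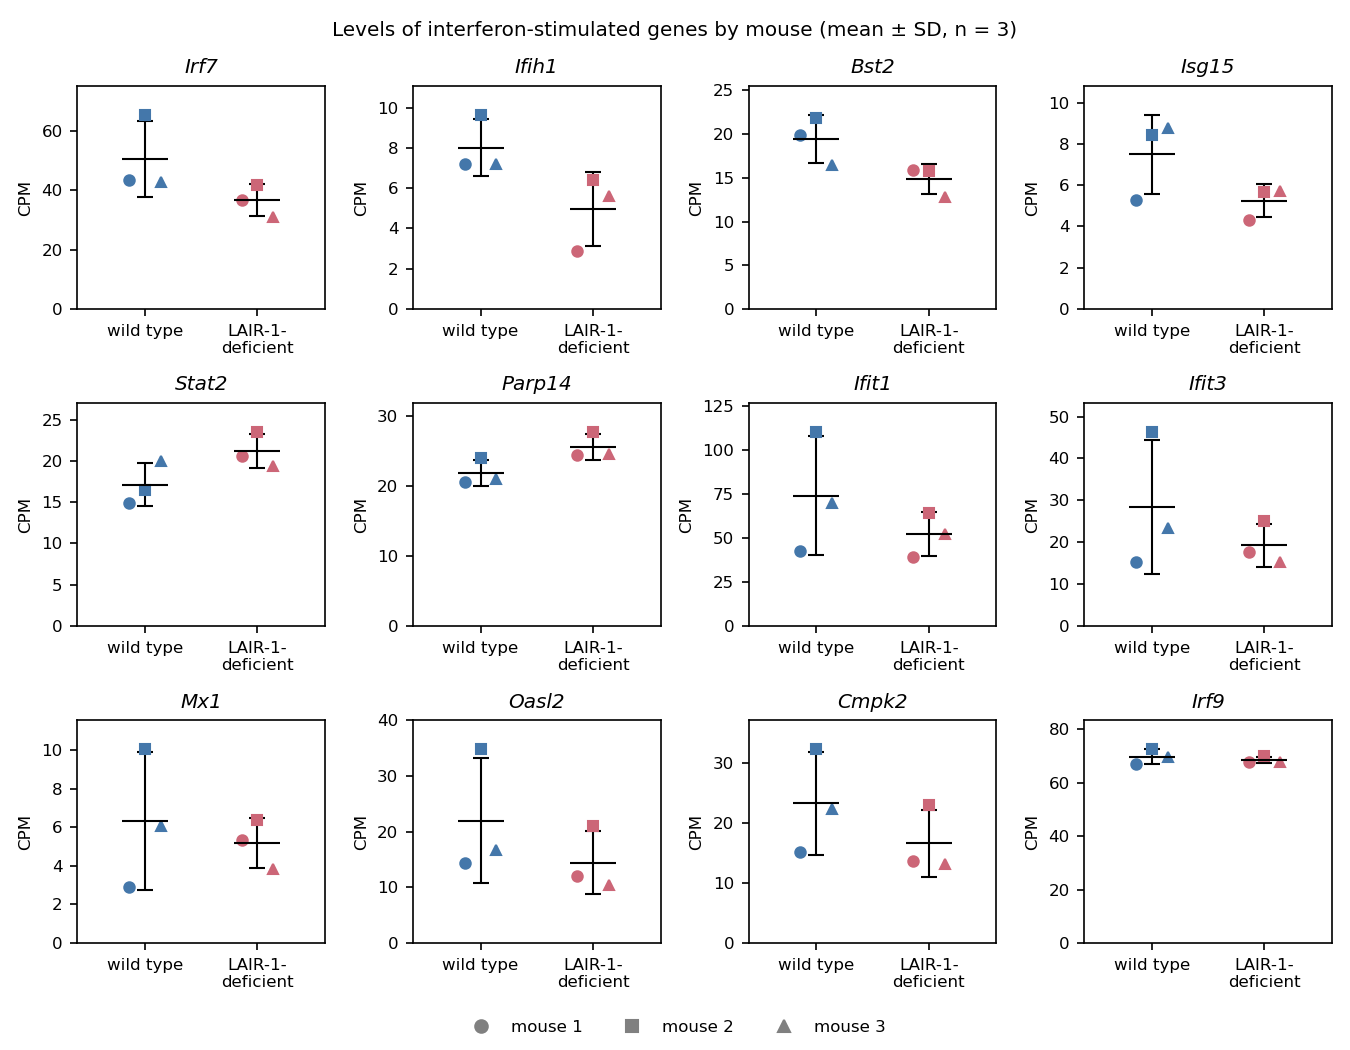
Level in CPM of 12 of the genes in each mouse, with circles, squares and triangles for mice 1, 2 and 3, horizontal lines for the mean and bars for the SD of 3 mice per genotype. Wild type mouse 2 is the highest point for Irf7, Ifih1, Bst2, Ifit1, Ifit3, Mx1, Oasl2 and Cmpk2, whereas Irf9 is nearly level across all 6 mice.

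Within a genotype, many members varied between mice in the same order. With 3 mice a genotype no correlation between genes was computed within a genotype, and the order of the mice was counted instead. In wild type cells mouse 2 was the highest of the 3 for 31 of 44 members (70.5%), against 29.6% of all genes tested, and mouse 1 was the lowest for 35 (79.5%), against 35.5%. Mouse 1 was the highest for 0 members, against 35.7% of all genes. The full order of mouse 2 above mouse 3 above mouse 1 held for 23 members, against 15.5% of all genes. Members share a pathway and libraries, so these counts are not of independent genes.

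In Lair1-/- cells mouse 2 was again the highest for most members, 32 of 44 (72.7%), against 33% of all genes. The lowest mouse was mouse 1 for 22 members, against 36.4%, and mouse 3 for 21, against 32.2%. Mouse 2 was the lowest for 1 member (Parp12), against 31.4%, and mouse 1 was the highest for 4, against 34.8%. Mouse 2 was highest in both genotypes for 25 members, against 10% of all genes. The labels do not say whether mice with the same number shared a litter or a day.

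Relative to each gene's own mean over the 6 libraries, on the log2(CPM + 1) scale, the median of the 44 members was -0.19, 0.32 and 0.09 in wild type mice. It was -0.20, 0.09 and -0.12 in Lair1-/- mice, so wild type mouse 1 lay at the level of the lowest Lair1-/- mouse. The same median over all genes tested lay between -0.001 and 0.006 in the 6 libraries. Within each genotype, the share of all counts that fell on the 45 members followed the same order of mice, at 0.196%, 0.266% and 0.235% in wild type mice and 0.189%, 0.236% and 0.208% in Lair1-/- mice.

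**Figure D3:**
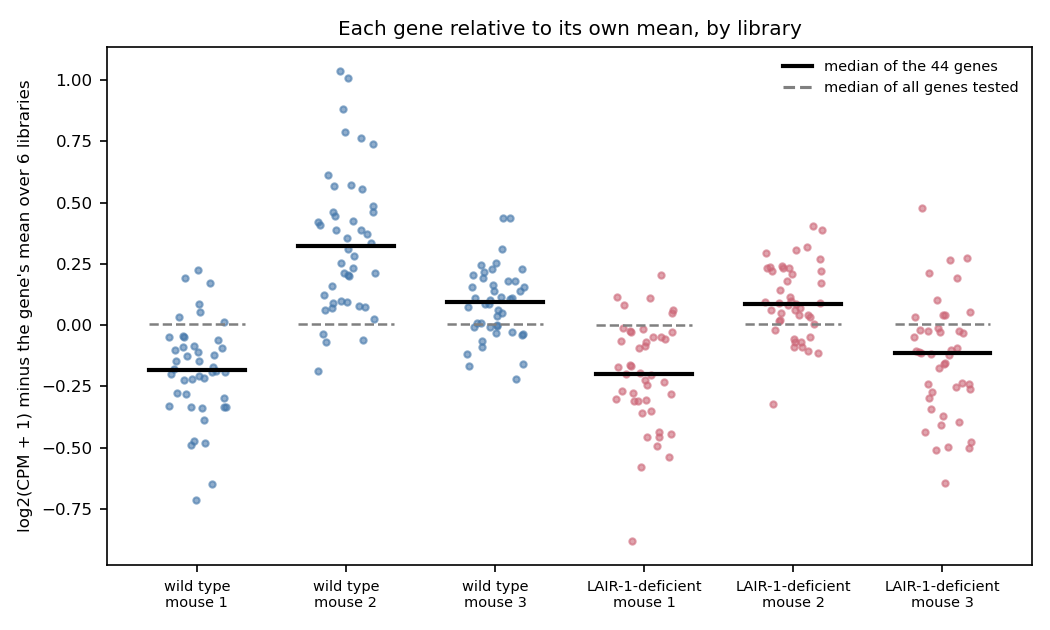
Log2(CPM + 1) of each of the 44 genes minus its mean over the 6 libraries, one point per gene in each mouse, with solid lines for the median of these genes and dashed lines for the median of all genes tested. The solid line is highest in wild type mouse 2, at 0.32, and about equally low in mouse 1 of each genotype, at -0.19 and -0.20.

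The distance between the extremes of the wild type mice differed greatly from gene to gene. These mice were chosen for this comparison after their values were seen. The level in wild type mouse 2 was more than 2 times that in mouse 1 for 6 members, against 1.8% of all genes tested, and more than 1.5 times for 18, against 5.61%. The ratio was 3.87 (1.98 to 8.24) for I830012O16Rik, 3.47 (2.18 to 5.75) for Mx1 and 3.01 (2.45 to 3.71) for Ifit3, with 95% intervals that cover counting error only. It was 2.59 (2.29 to 2.94) for Ifit1, 2.42 (1.95 to 3.02) for Oasl2 and 2.12 (1.71 to 2.64) for Cmpk2. These 6 are effectors of the antiviral state or their near copies. Other effectors had low ratios, such as Bst2 at 1.10 (0.887 to 1.36) and Ifit2 at 1.18 (0.912 to 1.54). At the other end, Irf9 had a ratio of 1.09 (0.967 to 1.22), Trim25 1.08 (0.988 to 1.19), Ifi35 1.04 (0.936 to 1.17) and Oasl1 0.931 (0.660 to 1.32). The counting interval lay above 1 for 32 of 44 members and held 1 for the other 12. The same count was not made over all genes tested, so it does not set the members apart.

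**Figure D4:**
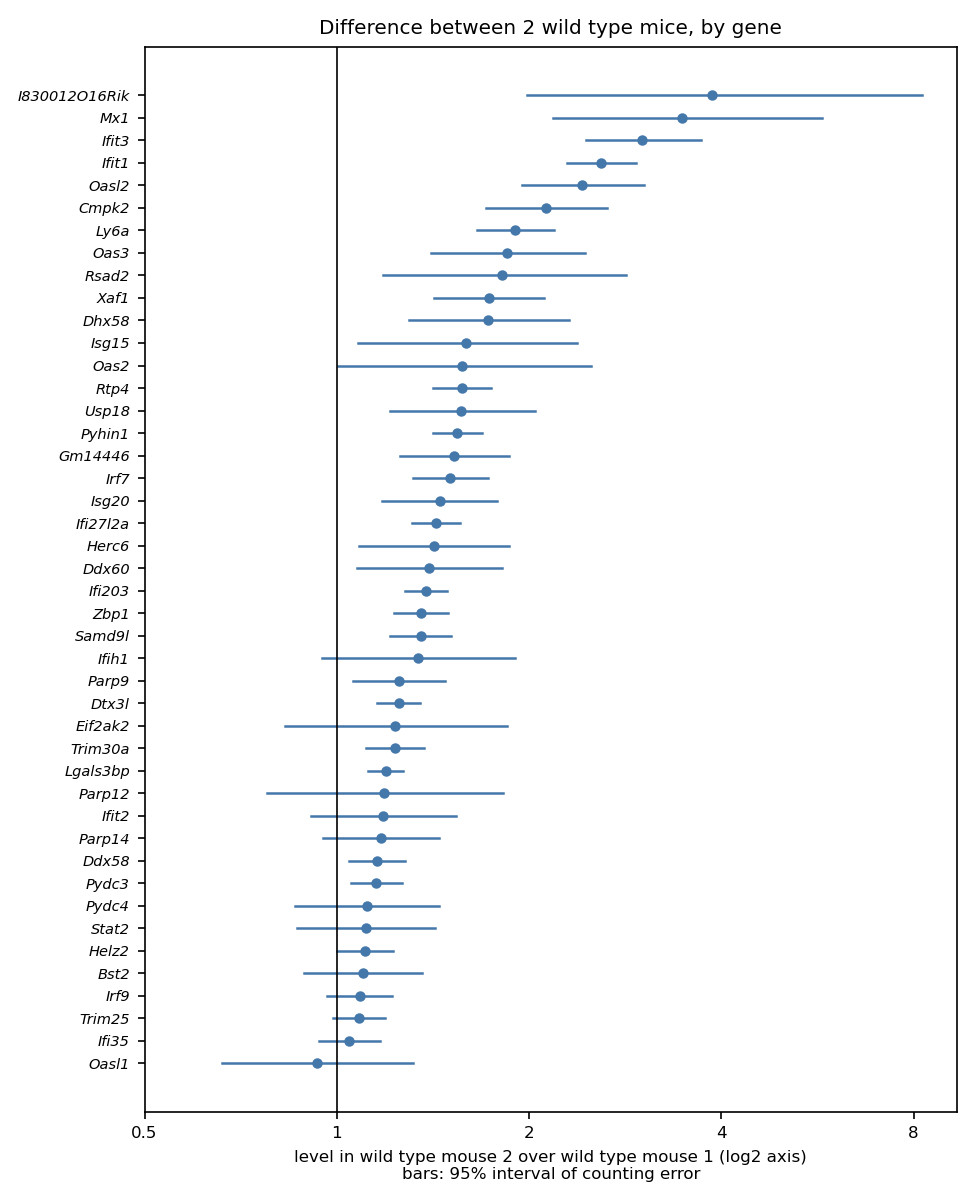
Ratio of the level in wild type mouse 2 to that in wild type mouse 1 for each of the 44 tested genes on a log axis, with bars for the 95% interval of counting error. I830012O16Rik, Mx1 and Ifit3 have the highest ratios, from 3.01 to 3.87, and Oasl1 is the one gene with a ratio under 1, at 0.931.

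The highest mouse was more than 1.5 times the lowest in wild type for 19 of 44 members, against 21% of all genes, and in Lair1-/- cells for 15, against 27.4%. Wild type mouse 2 was the highest of all 6 libraries for 27 members, against 13.4% of all genes. The 17 tested members whose promoter held the response element letters had a median ratio of wild type mouse 2 to mouse 1 of 1.38, between 1.10 and 3.87. The 17 tested members with a promoter in the table and no match had a median of 1.25, between 0.931 and 2.42. Their median log2 fold changes between genotypes were -0.19 and -0.21, with 13 and 14 negative. The difference between these sets was not tested.

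Ifnar1, a chain of the receptor, was at 43.4 ± 2.37 CPM in wild type against 37.3 ± 2.28 CPM in Lair1-/- cells, and did not pass the test. Among 13 tested genes that induce interferon, 0 passed and 7 were negative, with Tmem173, which encodes the adaptor STING, at 71.1 ± 1.62 and 80.5 ± 2.40 CPM and the ligase Traf6 at 26.2 ± 5.16 and 21.99 ± 4.75 CPM. Of 6 other IRF factors and cofactors 0 passed and 2 were negative, with Irf8 at 8.10 ± 1.31 and 10.5 ± 6.25 CPM and Irf1 at 285 ± 39.9 and 272 ± 26.1 CPM. Of 14 negative regulators 0 passed and 10 were positive, where 49.8% of all genes tested were negative. The SUMO ligase Pias1 was at 115 ± 2.44 and 97.1 ± 12.7 CPM and the deubiquitinase Otud5 at 133 ± 6.90 and 150.4 ± 18.8 CPM. Pias1 was the 1 gene of the 14 with an unadjusted p under 0.05 in edgeR's test, in the lower direction, against 1.44% of all genes. Of 11 listed interferon genes only Ifng had a row, with a level under 2 CPM in every library.

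Markers of other cell types were checked because myeloid cells carry many of these transcripts. The summed level of 19 macrophage and monocyte genes was 225, 274.9 and 247 CPM in wild type mice and 219, 233 and 231 CPM in Lair1-/- mice, so its highest library was the same as for the members. Most of the sum came from Ctss, at 141, 172 and 164 and 136, 157 and 138 CPM, and Cst3, at 62.2, 66.3 and 52.5 and 59.1, 52.6 and 66.4 CPM. Of the defining markers, Lyz2 was at 0 in 4 libraries and at most 0.137 CPM in the others, and Csf1r lay between 0.432 and 3.55 CPM. C1qb was at 1.01, 5.47 and 3.37 CPM in wild type against 2.45, 2.31 and 2.73 CPM in Lair1-/- mice, lowest in wild type mouse 1 and highest in wild type mouse 2. Among wild type mice, C1qc, Fcgr3 and Tyrobp were also lowest in mouse 1 and highest in mouse 2. Csf1r and Cd68 were not. Csf1r was at 1.77, 1.42 and 0.561 CPM in wild type mice, highest in mouse 1, and Cd68 at 3.41, 2.85 and 3.37 CPM, lowest in mouse 2. Relative to their own means, the 11 tested genes of the list had medians of -0.14, 0.28 and 0.12 in wild type and -0.09, -0.15 and -0.03 in Lair1-/- mice, so the wild type mice stood in the order seen for the members and the Lair1-/- mice did not. None of the 11 passed the test, and 1 had an unadjusted p under 0.05 in the lower direction, against 1.44% of all genes. That gene was Hmox1, which encodes heme oxygenase, at 5.04, 6.24 and 4.94 CPM in wild type against 1.59, 2.67 and 1.64 CPM in Lair1-/- mice. Siglech, a defining gene of plasmacytoid dendritic cells, was at 0 in 3 libraries and at most 0.356 CPM in the others, and the 8 genes of that list in the table, Bst2 among them, summed to between 365 and 453 CPM, mostly from Ccr9 and Pacsin1. The summed level of 8 B cell genes, led by Cd74 and Cd79b, was 76.8, 65.8 and 59.5 CPM in wild type and 65.2, 56.7 and 63.6 CPM in Lair1-/- mice, and that of 7 conventional dendritic cell genes, led by Cd83 and Xcr1, was at most 4.92 CPM. The 8 NK cell genes summed to between 399.5 and 447 CPM, mostly from Nkg7 and Eomes. Of the defining NK cell genes, Ncr1 was at most 0.137 CPM and Klrb1c at most 0.449 CPM in any library. The 5 neutrophil genes, led by Cxcr2 and Ngp, summed to 3.28, 8.43 and 4.38 CPM in wild type and 10.1, 3.74 and 2.73 CPM in Lair1-/- mice. Ngp, a neutrophil granule gene, was at 0, 28 and 3 counts in wild type and 15, 0 and 0 counts in Lair1-/- mice, so it was highest in wild type mouse 2, as many members were, and was at 0 in Lair1-/- mouse 2. S100a8 and S100a9 were also highest in mouse 2 among wild type mice and in mouse 1 among Lair1-/- mice. Cxcr2, the only tested gene of the neutrophil list, went the other way among wild type mice. It was at 2.90, 0.985 and 3.81 CPM in wild type, lowest in mouse 2, against 3.46, 3.38 and 2.60 CPM in Lair1-/- mice. The 3 erythroid genes, led by Alas2 and Slc4a1, summed to 0.126, 2.52 and 0.785 CPM in wild type and 0.577, 0 and 1.37 CPM in Lair1-/- mice, again with the highest value in wild type mouse 2. The part of other cells, and of the activation genes that were high in mouse 1, in the order of mice was not tested.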

How the data were processed

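RNA of sorted naive CD8 T cells was counted per gene in 6 libraries, 3 per genotype. The authors deposited raw counts as whole numbers, per the file headers. The submitters' processing notes name BWA and mm10, without a version or role. Per the labels' protocols, TruSeq small RNA primers were used, and annotation, counting tool, strand setting and molecular identifiers are not stated there. The 4 spike-in rows were left out.

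Columns were matched by the sample descriptions and grouped by the titles. Genes were tested with edgeR 4.0.16 (R 4.3.3), on the whole table, with filterByExpr at a smallest count of 10, TMM scaling and a robust quasi-likelihood F test with no covariate, two-sided, adjusted over 9565 genes by the Benjamini-Hochberg method at 0.05. The SE was derived from the fold change and F. Fits were tested on simulated data. Alternatives were other scaling and filters, DESeq2 1.42.0, limma-voom (limma 3.58.1), mouse number as a block, and libraries left out. Total counts per library set the precision, intervals of ratios between single mice cover counting error only, and intervals of genotype fold changes are edgeR's. Promoter letters and near copies were counted from RefSeq and GENCODE, and neither can show which reads were counted.

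Fold change and SE are given for the 10 members lowest in unadjusted p, which include the largest positive fold change. Pathway lists name their 2 smallest p among tested genes, and lists of other cell types their 2 most abundant genes. Other marker genes, the separated genes and the wild type ratio of mouse 2 to mouse 1 were chosen after their values were seen. The members and lists were chosen with earlier results of these data known.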

Additional observations from a re-analysis of the deposited data

How the results depend on the processing

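Under all 15 alternatives, 0 members were called in either direction, and the 10 members given with fold changes kept their sign wherever they were tested (Isg15 fell below the stricter filter). Their adjusted p lay between 0.337 (Irf7 without a count filter) and 0.9999. The median log2 fold change lay between -0.21 and -0.19 under other scaling, filters and tools. Leaving out 1 library gave medians between -0.29 (without wild type mouse 1) and -0.03 (without wild type mouse 2), and between 26 and 38 negative members. The number of members with an unadjusted p under 0.05 moved more, between 0 and 12. It was 0 without wild type mouse 2 and without mouse 2 of both genotypes, against 2.44% and 2.17% of all genes. It was 12 without wild type mouse 1, against 3.55% of all genes. With mouse number as replicate block, the median was -0.19 with 35 negative, and 0 members were called. In that fit 11 members had an unadjusted p under 0.05, against 4.68% of all genes. The labels do not tie same-numbered mice, and their deviations correlated across all genes tested at 0.325, 0.0238 and 0.0684 for mice 1, 2 and 3, not all above the 0.1 required to treat them as pairs. Across the 44 members the values were 0.085, 0.411 and 0.260, against -0.312 to 0.155 for mice of different number, so whether the numbers mark a shared source is not known. The count of members highest in wild type mouse 2 was 31 under each scaling, and that in Lair1-/- mouse 2 was 30 to 36. With a C required after the response element letters, 33.3% of the 36 member promoters matched, against 0.94% of all genes. Depth limits the low members most, such as Ifi44, Isg15, Mx1 and I830012O16Rik.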

Other observations

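A second list holds other genes induced by type I interferon that are not among the members. Of 61 listed, 54 had a row and 41 were tested, and 0 passed edgeR's test. An unadjusted p under 0.05 in that test was reached by 1 gene, in the lower direction, against 1.44% of all genes tested. The fold change was negative for 28, against 49.8% of all genes tested. The median log2 fold change was -0.07, against 0.00059 over all genes. Phf11a had the smallest p, at 26.0, 42.0 and 24.0 CPM in wild type against 21.6, 21.9 and 24.1 CPM in Lair1-/- mice, where wild type mouse 2 was the highest. Sco1, a mitochondrial copper chaperone, followed at 8.85 ± 1.39 and 12.3 ± 3.96 CPM. Wild type mouse 2 was the highest wild type mouse for 27 of the 41 genes and wild type mouse 1 the lowest for 26, against 29.6% and 35.5% of all genes tested. In Lair1-/- cells mouse 2 was the highest for 17 of the 41, against 33% of all genes tested. Some well-known targets had few counts. Ifitm3, which blocks virus entry, was at 0.647 ± 0.200 and 1.01 ± 0.671 CPM and Mx2, a relative of Mx1, at 1.63 ± 0.768 and 0.794 ± 0.490 CPM. Neither passed the filter on low counts, and both were named after their values were seen.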
